A study of Acacia koa with 4 samples.

Results

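A122958 is the array's transcript for a 1-aminocyclopropane 1-carboxylate synthase (ACC synthase) of koa, Acacia koa, a leguminous tree of Hawaii. It was 1 of 4000 transcripts measured, and it was chosen by its identifier and description, with earlier results of these data known. The study compared seedlings whose stems had been bent by hand towards the cardinal directions, without a wound ("stressed"), with seedlings left unbent ("unstressed"). There were 2 biological replicates per group, and a replicate was about 20 seedlings ground together to a powder and hybridised to 1 single-colour array. The seedlings' origin and age and the time from bending to harvest are not stated in the labels used here. Besides A122958, 7 other transcripts carried "1-aminocyclopropane" or "S-adenosylmethionine synth" in their descriptions, and a further 5 were described as ACC synthase or ACC oxidase. These 12 are the neighbouring-step transcripts.

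Plants make ethylene, a gaseous hormone, from methionine. S-adenosylmethionine synthetase activates methionine, ACC synthase closes part of the product into the small ring of ACC, and ACC oxidase turns ACC into ethylene, with carbon dioxide and cyanide. The ACC synthase step often limits the rate. The enzyme comes from a gene family whose members respond to different signals, and touch and bending are among the stimuli long known to raise ethylene output and to shorten and thicken stems. Ethylene is bound by receptors at the endoplasmic reticulum, and its signal reaches the nucleus through EIN3-type factors, which switch on ethylene response factors.

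Levels are given as linear RMA intensities, each a summary over 18 probes for every transcript named here. Intensities ran from 44.2 to 64925 over the 4 arrays. The array identifiers differ only in position, and the unstressed pools had the first positions and the stressed pools the last, so position and group cannot be told apart. The photosynthetic transcript A61, a chlorophyll A/B binding protein, was near the top of the scale in all pools. It was at 61888 and 63137 in the unstressed and 61684 and 63243 in the stressed pools. The other photosynthetic transcripts were A73, at 29096 to 30572 over the pools, and A526993, near the bottom of the scale at 48.1 to 52.7. The highest intensity of an array was 64415 to 64925, so A61 could hardly show a rise between the groups.

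The intensity of A122958 was 291 in unstressed replicate 1 and 272 in unstressed replicate 2. It was 1038 in stressed replicate 1 and 1059 in stressed replicate 2. Both bent pools lay far above both unbent pools, and within each group the pools were almost level. Bent pools above unbent pools, by any margin, were found for 12% of all transcripts. On the log2 scale the mean of the unstressed pools was 8.14 ± 0.07 (SD, n = 2) and that of the bent pools was 10.03 ± 0.02 (SD, n = 2). The transcript rose 3.73-fold in bent seedlings (95% confidence interval 3.01 to 4.62, limma adjusted p = 0.0063 over all 4000 transcripts). Each of the 4 ratios of a stressed to an unstressed pool lay between 3.57 and 3.90.

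Over the whole array limma called 37 transcripts higher, 0.925% of those tested, and 1 lower, 0.025%, at an adjusted p under 0.05, which made 38 in all (0.95%). The number called higher was 10 without stressed replicate 1 and 8 without stressed replicate 2, and the number called lower was 0 without unstressed replicate 1 or either stressed replicate. A122958 was 12th by p-value and 22nd by size of rise, and its fold was below the 4.19-fold median of the 37. At an unadjusted p under 0.05 there were 220 transcripts, 5.5% of the array, the share against which the unadjusted counts of the lists below are to be read. The median log2 difference of all transcripts was −0.04. The pools of seedlings are bulk samples, so more RNA per cell and more cells that make the transcript cannot be told apart.

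The spread between its replicate pools was small for this array. The unstressed pools differed by 0.10 on the log2 scale, against a median of 0.21 over all transcripts, and 73.4% of transcripts differed more. The stressed pools differed by 0.03, against a median of 0.14, and 87.4% of transcripts differed more. The unstressed intensities lay below the lower quartile of their arrays, which was 379.6 and 369.2, and the stressed ones lay near the median of theirs. No detection call came with the values, so how far the unstressed level stood above background is not known, and the fold may be understated. With 50 added to every intensity the rise was 3.32-fold. The call was lost when a stressed pool was left out, at adjusted p = 0.089 without stressed replicate 1 and 0.11 without stressed replicate 2, although the log2 difference was then 1.91 and 1.88.

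**Figure D1:**
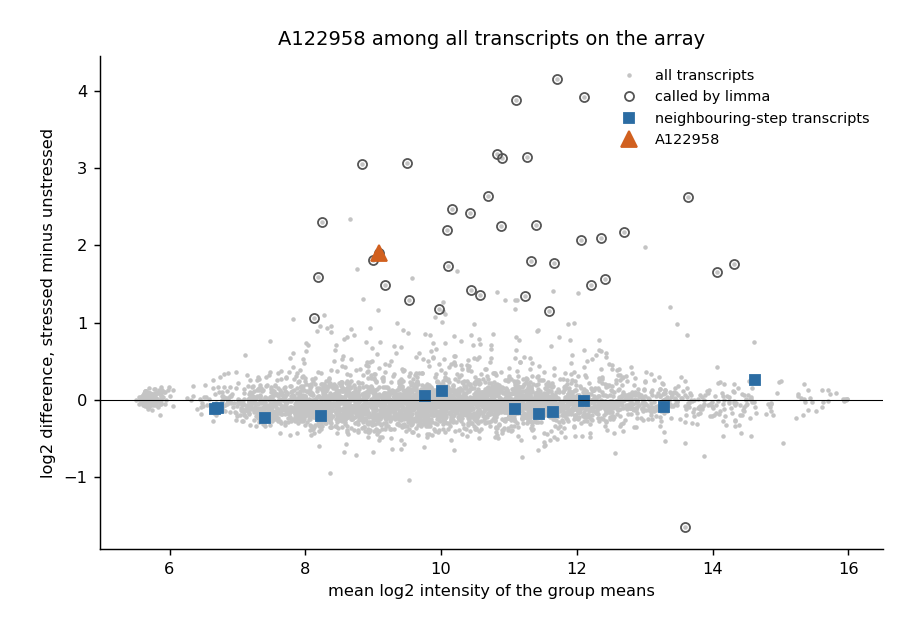
Each point is 1 of the 4000 transcripts, with the mean log2 intensity on the horizontal axis and the log2 difference, stressed minus unstressed, on the vertical axis; open circles mark the 38 transcripts called by limma. A122958 (triangle) lies at 1.90, while the 12 neighbouring-step transcripts (squares) lie between −0.24 and 0.25.

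Of the 3 other transcripts described as ACC synthase, limma called none, and none had an unadjusted p under 0.05. A42370 had intensities of 1089 and 897 in the unstressed and 1120 and 1024 in the stressed pools, a ratio of 1.08 (0.83 to 1.42). A52952 had 841 and 868 in the unstressed and 864 and 898 in the stressed pools, a ratio of 1.03 (0.84 to 1.27). For both, the groups overlapped and the interval ended well short of the 3.01-fold lower bound of A122958. The third, A580663, was dim in every pool, at 115.8 and 101.8 in the unstressed and 97 and 104.3 in the stressed pools, a ratio of 0.93 (0.73 to 1.18). For so dim a transcript a difference could be understated.

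The rise of A122958 exceeded the change of each of these relatives when the difference itself was tested, by limma on the log2 ratio of the 2 transcripts within each array. It exceeded the change of A42370 by 1.78 (95% confidence interval 1.40 to 2.16, limma adjusted p = 2.4e-05), that of A52952 by 1.85 (1.497 to 2.21, adjusted p = 2.0e-05) and that of A580663 by 2.01 (1.66 to 2.36, adjusted p = 2.0e-05) on the log2 scale. The same test called a larger rise of A122958 against 99.1% of the 3999 other transcripts, so this result is not particular to the ACC synthases. All these ratios share the values of A122958, and since nearly all were called, the adjustment changed their p-values little. The unadjusted limma p was 1.3e-05 for A42370, against 2.0e-05 for the rise of A122958 itself, whose adjusted p was 0.0063. Adjusted p-values of this test and of the main fit are therefore not comparable. The test was not repeated under the alternative settings. Close relatives may also bind each other's probes, so the 4 ACC synthase values are not fully separate measurements.

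**Figure D2:**
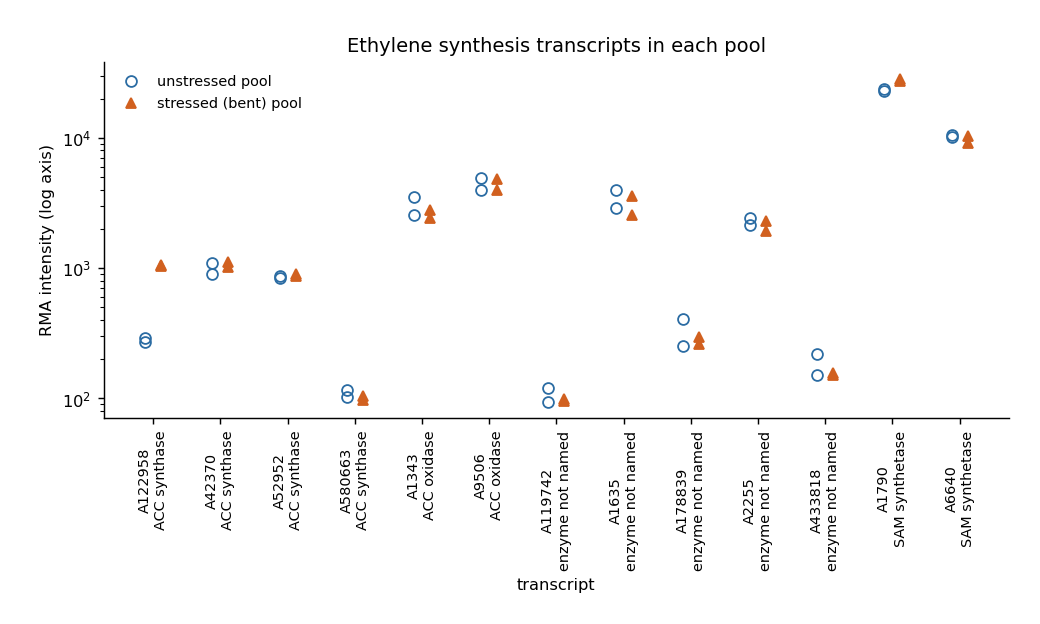
RMA intensity, on a log axis, of A122958 and the 12 neighbouring-step transcripts in each pool (open circles, 2 unstressed pools; triangles, 2 stressed pools). A122958 went from 291 and 272 to 1038 and 1059. In 11 of the 12 others the pools of the groups overlap, as in 2741 of all 4000 transcripts. Levels of different transcripts cannot be compared, since each has its own probes.

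S-adenosylmethionine synthetase, the step before ACC synthase, was measured by 2 transcripts, and limma called neither. A1790 was at 22747 and 23764 in the unstressed and 27057 and 28445 in the stressed pools. Its stressed pools lay above its unstressed pools, as they did for 12% of all transcripts, with a ratio of 1.19 (0.97 to 1.48, limma adjusted p = 0.99, unadjusted p = 0.085). A6640 was at 10552 and 10153 in the unstressed and 10318 and 9039 in the stressed pools, which overlap, with a ratio of 0.93 (0.74 to 1.18). The rise of A122958 was larger than the change of A1790 by 1.64 (1.28 to 2.00, limma adjusted p = 2.7e-05) and than that of A6640 by 2.00 (1.62 to 2.37, adjusted p = 2.0e-05) on the log2 scale. That test called a larger rise of A122958 against 99.1% of the other transcripts, so it does not set this step apart.

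ACC oxidase, the step after it, was named in 2 descriptions, and neither transcript was called. A1343 was at 3482 and 2553 in the unstressed and 2800 and 2435 in the stressed pools, a ratio of 0.88 (0.62 to 1.24). A9506 was at 3961 and 4954 in the unstressed and 4001 and 4814 in the stressed pools, a ratio of 0.99 (0.72 to 1.36). In both the groups overlapped, and replicate pools differed by as much as the groups. A122958 rose more than A1343 by 2.09 (1.65 to 2.53, limma adjusted p = 2.3e-05) and more than A9506 by 1.91 (1.45 to 2.38, adjusted p = 4.3e-05) on the log2 scale. Here too the test does not set the step apart, since it called 99.1% of the other transcripts.

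The other 5 transcripts had descriptions that name the ACC molecule but stop before the enzyme, so they may be synthases, oxidases or another class. None was called by limma and none had an unadjusted p under 0.05. All 5 had lower group means in stressed pools, at ratios from 0.85 to 0.92, as did 2430 of all 4000 transcripts. In all 5 the pools of the groups overlapped, as in 2741 of all 4000. A433818 was at 221.1 and 152.4 in the unstressed and 158.1 and 152.6 in the stressed pools (ratio 0.85, 0.58 to 1.22). A178839 was at 410.2 and 253.1 in the unstressed and 297.4 and 261.7 in the stressed pools (ratio 0.87, 0.55 to 1.37). A119742 was at 120.0 and 94.1 in the unstressed and 95 and 99.9 in the stressed pools (ratio 0.92, 0.69 to 1.22). In all 5 transcripts unstressed replicate 1 was the highest of the 4 pools, and without it the log2 difference was above 0 in 4 of the 5, A2255 being the exception at −0.02. A1635 was at 3945 and 2904 in the unstressed and 3605 and 2559 in the stressed pools (ratio 0.90, 0.58 to 1.38). A2255 was at 2443 and 2126 in the unstressed and 2290 and 1913 in the stressed pools (ratio 0.92, 0.70 to 1.21). Over all 12 neighbouring-step transcripts the highest upper bound was 1.48-fold, and the differences of A122958 from each had limma adjusted p-values up to 5.8e-05. The same test of differences called 99.1% of the other transcripts on the array.

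**Figure D3:**
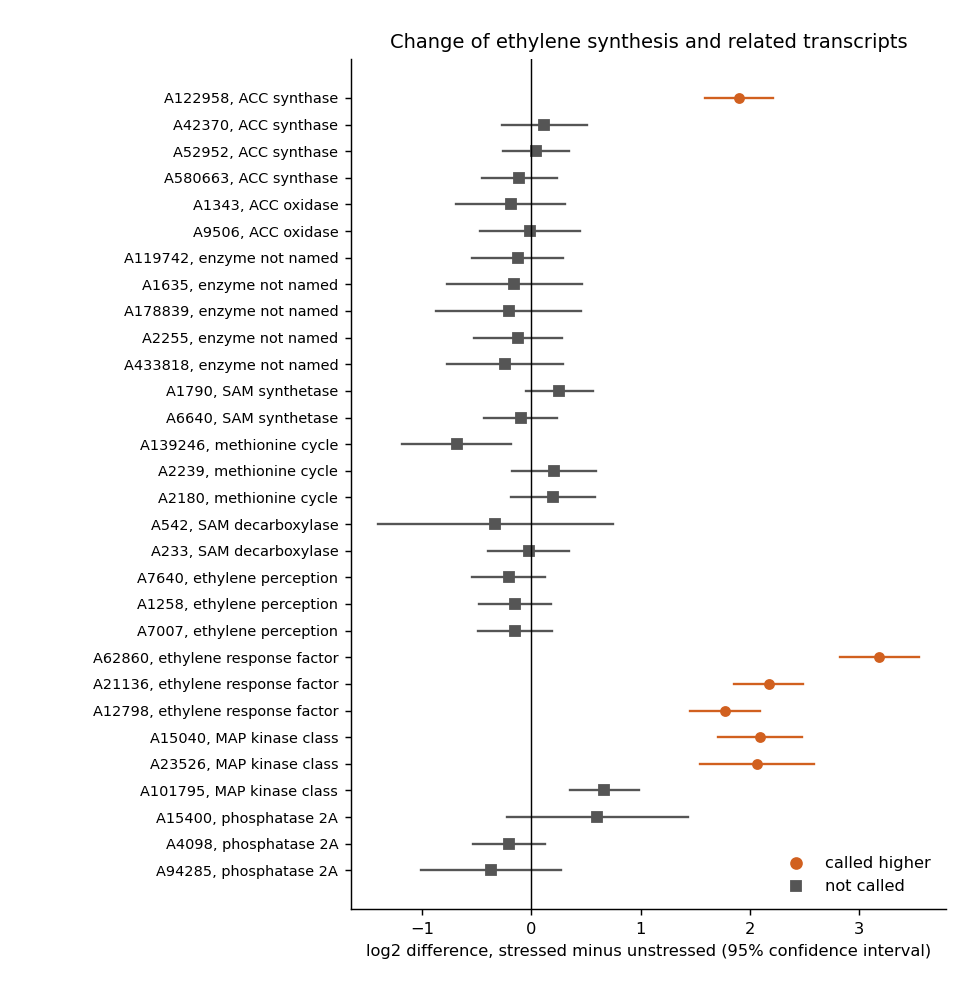
Log2 difference, stressed minus unstressed, with limma's 95% confidence interval, for A122958, the 12 neighbouring-step transcripts and the named members of 6 related lists; circles mark transcripts called higher and squares those not called. A122958 stands at 1.90 (1.59 to 2.21), and the called response factors and MAP kinases lie between 1.77 and 3.18.

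The methionine cycle recycles the by-product that S-adenosylmethionine leaves when it gives up its methyl group, whereas the methionine used for ethylene is restored through methylthioadenosine salvage. The methionine cycle list held 7 transcripts, with a median log2 difference of −0.05 against −0.04 over all transcripts, and limma called none, with 1 at an unadjusted p under 0.05. That 1 was A139246, an adenosylhomocysteinase, the enzyme that clears the by-product of methylation, at 555 and 763 in the unstressed and 428 and 383 in the stressed pools (ratio 0.62, 0.44 to 0.88, limma adjusted p = 0.51). Its pools did not overlap, as in the 19.5% of all transcripts whose stressed pools both lay below. The adenosylhomocysteinases A2239 and A2180 had ratios of 1.16 (0.89 to 1.51) and 1.15 (0.88 to 1.49). S-adenosylmethionine decarboxylase, which draws the same substrate into polyamines, was measured by A542 (ratio 0.80, 0.38 to 1.68) and A233 (ratio 0.98, 0.76 to 1.27), neither of them called. In A542 the replicates stood far apart, at 27550 and 16217 in the unstressed and 23748 and 11911 in the stressed pools.

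Of 49 methyltransferases, the broadest class of S-adenosylmethionine users on the array, limma called none, with 1 at an unadjusted p under 0.05. Their median log2 difference was −0.04. The 3 smallest p-values belonged to the O-methyltransferases A128976 (ratio 0.76, 0.58 to 0.99), A151513 (0.84, 0.65 to 1.08) and A102679 (1.26, 0.89 to 1.79). The search term also caught serine hydroxymethyltransferases, which do not use S-adenosylmethionine. The array's only aminotransferase by description, A316, of the wider class of vitamin B6-dependent enzymes to which ACC synthase belongs, had a ratio of 0.83 (0.55 to 1.25) and overlapping groups. No description matched the terms for methylthioadenosine salvage or for the removal of cyanide.

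Ethylene perception and its relay held 13 transcripts, among them receptors, EIN3-type factors and the EIN3-binding F-box proteins that mark those factors for breakdown. Limma called none, none had an unadjusted p under 0.05, and the ratios ran from 0.87 to 1.10 with a median log2 difference of −0.07. The smallest p-values were those of the F-box proteins A7640 (ratio 0.87, 0.69 to 1.09) and A7007 (0.90, 0.71 to 1.14) and of the ethylene insensitive transcript A1258 (0.90, 0.72 to 1.13). All 3 had both stressed pools below both unstressed pools, which held for 4 of the 13 and for 19.5% of all transcripts. A26369, 1 of the 13, is similar to ETO1, which in Arabidopsis helps to mark some ACC synthases for breakdown. It came into the list by a search term, not as a part of perception, and was named after its values were seen. It was at 2134 and 2173 in the unstressed and 2157 and 2586 in the stressed pools, a ratio of 1.10 (0.85 to 1.41), the highest of the list.

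Ethylene response factors stand at the far end of the pathway, although many members of this family answer to other signals. Of 27 transcripts limma called 3 higher, or 11.1% against 0.925% of all transcripts, and 0 lower; 8 had an unadjusted p under 0.05, or 29.6% against 5.5% of all transcripts. The median log2 difference was 0.19 against −0.04 over all transcripts, with 21 positive and 6 negative. Over all transcripts 1570 were positive and 2430 negative. One of the 27, A6167, is an ethylene response sensor, a receptor caught by the search term (ratio 1.17, 0.81 to 1.68). The EREBP-3 homolog A62860 rose from 579 and 624 to 5046 and 5903, or 9.08-fold (7.07 to 11.7). A21136, an ethylene-responsive element-binding protein, rose from 3198 and 3032 to 13555 and 14493, or 4.50-fold (3.62 to 5.59). A12798, described as an ethylene-responsive transcription factor, rose from 1670 and 1857 to 5998 and 6021, or 3.41-fold (2.73 to 4.27). The limma adjusted p-values of the 3 were 0.0035, 0.0056 and 0.0087. Like A122958, A21136 and A12798 were not called when either stressed pool was left out, with adjusted p-values from 0.057 to 0.12, whereas A62860 was called whichever array was left out; without a stressed replicate the list thus had 1 called member. The other 24 had ratios from 0.82 to 2.44.

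MAP kinases and calcium-dependent protein kinases include enzymes that, in Arabidopsis and tomato, phosphorylate ACC synthase and slow its breakdown. Of 31 such transcripts, upstream kinases of the cascades included, limma called 2 higher, or 6.45% against 0.925% of all transcripts, and 0 lower; 4 had an unadjusted p under 0.05. The median log2 difference of the list was −0.01. The MAP kinase A15040 was at 2327 and 2792 in the unstressed and 10368 and 11374 in the stressed pools, a rise of 4.26-fold (3.27 to 5.55, limma adjusted p = 0.0087). It was not called without stressed replicate 1 (adjusted p = 0.087) or stressed replicate 2 (0.11). The mitogen-activated protein kinase 2 A23526 was at 1933 and 2261 in the unstressed and 7449 and 10318 in the stressed pools, a rise of 4.19-fold (2.92 to 6.02, adjusted p = 0.024). Its call was lost whichever array was left out (adjusted p from 0.062 to 0.12), so that 1 kinase was called without either unstressed replicate and 0 without either stressed replicate. A101795, a MAP kinase kinase, had a ratio of 1.59 (1.28 to 1.97, adjusted p = 0.17).

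Phosphatase 2A, which in Arabidopsis acts on some but not all ACC synthases in the opposite sense, was covered by 13 transcripts. No description named a 14-3-3 protein, the other term of that list. Limma called none and none had an unadjusted p under 0.05. A15400, similar to the catalytic subunit PP2A-3, was at 186.3 and 181.5 in the unstressed and 201.5 and 387.1 in the stressed pools, so its ratio of 1.52 (0.85 to 2.70) rested on stressed replicate 2. A second PP2A-3 transcript, A4098, had a ratio of 0.87 (0.69 to 1.09), and the regulatory subunit A94285 one of 0.77 (0.50 to 1.20).

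Auxin is a known inducer of some ACC synthase genes in other plants. Of the 56 auxin transcripts limma called none, with 3 at an unadjusted p under 0.05, and the median log2 difference was −0.09. That is 5.36% of the list, near the 5.5% of all transcripts. The 3 were the auxin-induced A69580 (ratio 2.41, 1.51 to 3.85, adjusted p = 0.24) and A43833 (2.15, 1.37 to 3.38, adjusted p = 0.32) and the 5NG4-like A17038 (0.67, 0.49 to 0.91, adjusted p = 0.56). Ripening, senescence, abscission and wall loosening, processes that ethylene takes part in, gave 31 transcripts, of which limma called none and none had an unadjusted p under 0.05. Their median log2 difference was −0.09. The members with the smallest p were a polygalacturonase inhibiting protein (A3570, ratio 1.22, 0.96 to 1.56), a senescence-inducible chloroplast transcript (A118699, 0.76, 0.54 to 1.08) and a beta-expansin (A97905, 0.84, 0.63 to 1.13).

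The pools were also compared for markers of other tissues and states, since each was a mix of organs. Limma called none of the 3 photosynthetic, 39 xylem and secondary wall, 7 root and nodule, 7 wounding and 42 "ribosomal protein" transcripts, with 0, 2, 1, 0 and 2 at an unadjusted p under 0.05, against 5.5% of all transcripts. The last list also holds a signalling kinase caught by the search term, A132084 (ratio 0.79, 0.64 to 0.97), which is 1 of its 2; the other is the ribosomal protein A3416 (1.71, 1.14 to 2.58), and A2369 came next (1.25, 0.85 to 1.82). In the root and nodule list the nodulin A268015 was at 1261 and 901 in the unstressed and 513 and 517 in the stressed pools (ratio 0.48, 0.34 to 0.68, limma adjusted p = 0.17), followed by A6182 (1.15, 0.80 to 1.64) and A3881 (1.16, 0.74 to 1.80). In the xylem list the cellulose synthase A103931 was at 2712 and 3361 in the unstressed and 1874 and 1741 in the stressed pools (ratio 0.60, 0.45 to 0.79, limma adjusted p = 0.25), followed by the laccases A213127 (0.77, 0.62 to 0.95) and A155477 (0.82, 0.66 to 1.00). The wounding members with the smallest p were the protease inhibitors A483 (1.41, 0.80 to 2.48), A92547 (1.26, 0.74 to 2.16) and A10786 (1.17, 0.81 to 1.69). Besides A61, the photosynthetic list held A73, a photosystem II protein (0.97, 0.79 to 1.20), and A526993, a ribulose-phosphate epimerase (1.04, 0.83 to 1.29). Summed intensities of the wounding list, mostly protease inhibitors, were 8888 and 8281 in the unstressed and 10442 and 8484 in the stressed pools, and those of the xylem list 239721 and 219446 against 211219 and 219540. The photosynthetic sums were 92510 and 92769 in the unstressed and 91185 and 92391 in the stressed pools. Most of each sum came from A61, which was near the top of the scale. A526993 was near the bottom of it, at 48.1 to 52.7 against lowest intensities of 44.2 to 45.5. These 2 transcripts could therefore show little difference between the groups. Root and nodule sums were 15341 and 19128 against 17950 and 18817. The sums of the "ribosomal protein" list were 193955 and 243739 against 234226 and 244138, and 34 of these 42 transcripts had positive differences, with a median of 0.11. Of all 4000 transcripts 1570 had positive differences, with a median of −0.04. In the xylem, root and ribosomal lists unstressed replicate 1 stood farthest from the other pools. The part of these markers in the rise of A122958 was not tested.

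The transcripts whose pattern over the 4 arrays was nearest to that of A122958 were sought among all transcripts, by the root mean square difference between log2 profiles that were each centred on their own mean. With 4 arrays in 2 groups, this measure mostly finds transcripts with a like rise and steady replicates. The nearest was A112980, a NAC domain protein of a plant transcription factor family, at 281.6 and 262.8 in the unstressed and 927 and 988 in the stressed pools. Its profile differed from that of A122958 by 0.05, against a median of 0.98 over all transcripts, and it rose 3.52-fold (2.82 to 4.38, limma adjusted p = 0.0081). Next came A409657, a syntaxin of the membrane fusion machinery (0.11, 3.33-fold), and the response factors A12798 (0.11) and A21136 (0.14) given above. They were followed by A209791, an NBS-LRR immune receptor (0.14, 3.47-fold), the MAP kinase A15040 (0.16), A124099, an AP2 domain factor (0.18, 3.01-fold), and A17246, a calcium-binding EF-hand protein (0.18, 2.95-fold). All 8 were among the 37 called higher, which follows from the likeness to a called transcript. By Pearson correlation over the 4 arrays 2 of the 8, A21136 and A112980, stayed among the nearest 8. A correlation above 0.99 was reached by 40 transcripts, so the order within this group is not resolved by 4 arrays.

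**Figure D4:**
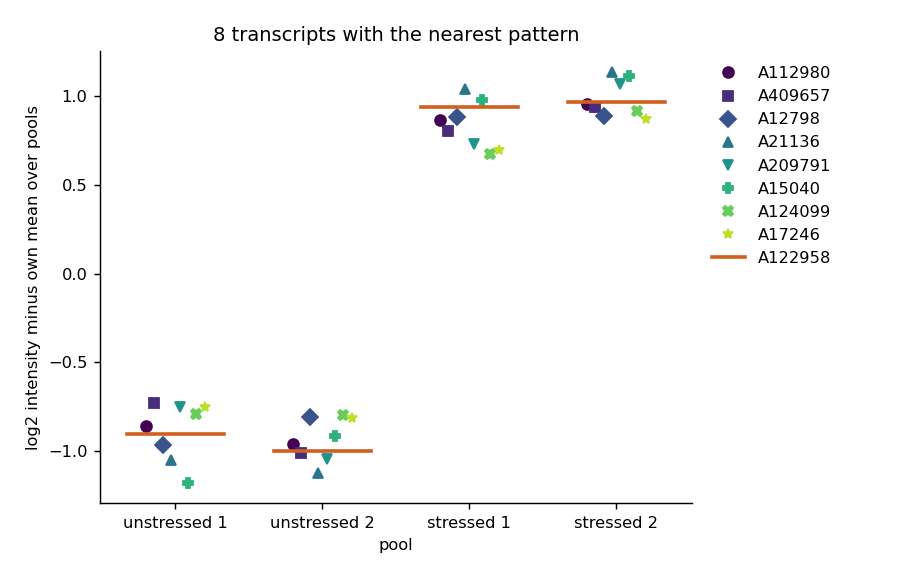
Log2 intensity minus the transcript's own mean over the 4 pools, for A122958 (horizontal bars) and the 8 transcripts with the nearest pattern (symbols, shifted sideways for legibility). All 9 are below their mean in both unstressed pools and above it in both stressed pools, and A112980 follows A122958 to within 0.05 (root mean square).

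**Figure D5:**
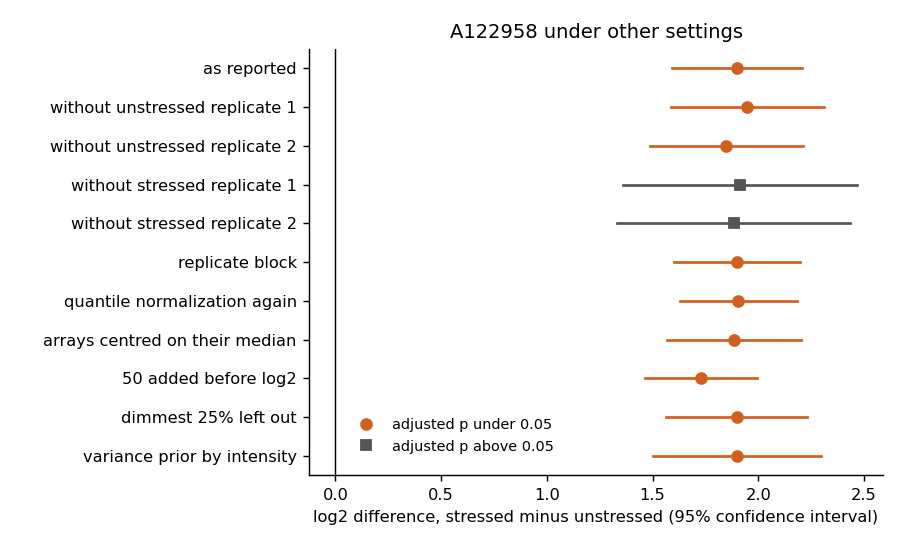
Log2 difference of A122958, stressed minus unstressed, with limma's 95% confidence interval, as reported and under 10 other settings; circles mark an adjusted p under 0.05 and squares one above it. The differences lie between 1.73 and 1.95, and the 2 settings without a stressed pool are the ones above 0.05.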

How the data were processed

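RNA of 4 seedling pools was measured on single-colour NimbleGen arrays. The deposited intensity values, 1 per transcript and array on a linear scale, were made by the authors with RMA, per the submitters' processing notes; the software release and options are not stated there. RMA assumes that most transcripts do not change. The series-wide deposited table repeated these intensities exactly (largest difference 0). Intensities were taken to log2 and fitted in R 4.3.3 with limma 3.58.1 (lmFit, then eBayes), group as the only term, without a filter. Adjusted p-values are Benjamini-Hochberg over 4000 transcripts, threshold 0.05 ("called"). Folds are ratios of geometric means with limma's 95% confidence intervals, unadjusted. Residual degrees of freedom were 2 and the prior added 2.93. A permutation of 2 against 2 arrays cannot give p below 0.333, and the number of arrays limits the precision.

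Members and lists were chosen with earlier results of these data known; lists were search terms in the descriptions, and the test against A122958 within arrays was added after the data were seen. Named were A122958, the neighbouring steps, the called members and the 3 smallest p of each list (all of a list of up to 5), and the 8 nearest patterns. The fit was tested on simulated data with independent noise in every array. Same-numbered pools of the real data deviated together, so the simulation does not cover that feature. No genome or sequence of koa was used, so no coordinates are given. Names are descriptions of similar proteins. Alternatives were each array left out, a replicate block, quantile normalization, median centring, 50 added, the dimmest 25% left out and a variance prior that follows intensity.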

Additional observations from a re-analysis of the deposited data

How the results depend on the processing

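A122958 kept its direction under all 10 alternatives, with log2 differences of 1.85 to 1.95 when an array was left out (adjusted p from 0.026 to 0.11) and 1.73 to 1.90 otherwise (adjusted p up to 0.012). Every fit that left out an array had fewer samples. Without a stressed array the remaining pool is assumed to vary like the unstressed pools, and the call was lost in both such fits. Leaving out an array gave 8 to 26 transcripts called higher and 0 to 1 lower, 1 to 3 among the ethylene response factors and 0 to 1 among the kinases. None of the 12 neighbouring-step transcripts was called under any alternative, and 8 of them changed sign in at least 1 fit that left out an array. Over those fits the log2 differences ran from −0.0235 to 0.256 for A42370, −0.416 to 0.0326 for A1343, −0.175 to 0.148 for A9506, −0.301 to 0.0496 for A119742, −0.404 to 0.0906 for A1635, −0.556 to 0.141 for A178839, −0.253 to 0.00722 for A2255 and −0.510 to 0.0273 for A433818. The small differences of these transcripts thus have no settled sign.

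Same-numbered pools deviated together (correlation 0.51 over transcripts), but the labels do not say that a number marks a shared batch, and there are 2 pairs. With the replicate number as a block, 1 residual degree of freedom remained, and limma called 123 transcripts higher and 16 lower. A122958 then had a limma adjusted p of 1.1e-07. In that fit the intervals were almost equally wide, at 1.60 to 2.20 for A122958 and −0.31 to 0.28 for A9506. The p-value thus rests mostly on a spread pooled over transcripts. It does not measure the replicate spread of A122958 and is not stronger evidence than the reported fit. Among the lists, the block gave 7 response factors and 4 kinases called higher, 2 auxin transcripts higher and 2 lower, 1 methionine cycle transcript lower and 1 ripening transcript lower. The other settings that kept all 4 arrays left these list counts as reported, whereas leaving out an array changed some of them, as given above. No detection call came with the intensities, so the distance from background is unknown for dim transcripts such as A580663, A119742, A433818, A102679 and A526993.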
